A study of Mus musculus with 8 samples.

Results

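The genes described here are 6 members of the mouse Ly6 family (Ly6a, Ly6c1, Ly6c2, Ly6e, Ly6d and Ly6k) together with Cd44, 7 of the 54232 gene IDs counted by RNA-seq in this series. They were chosen by name because Ly6 genes respond to interferon and mark memory-like CD8+ T cells, and each name matched 1 gene ID. Their transcripts were compared between NK cells and CD8+ T cells that both came from spleens of mice labelled Tyk2-/-, which lack the Janus kinase TYK2 in the whole body. The knockout allele is Tyk2tm1Biat, which the study kept in lines with and without a CMV-cre transgene, and which of these gave the libraries is not given in the sources used here. The mice were labelled C57BL/6 (C57BL/6N in the methods), 8 to 12 weeks old and untreated, the condition called homeostatic. Each library was a pool of 3 littermates, from which NK1.1+ NK cells or CD8+ T cells were purified by FACS, and 500 pg of RNA were amplified by Smart-seq2 and sequenced as 50-base single-end reads. There were 3 libraries of each cell type, so the contrast is between cell types within the knockout. In the labels the NK and CD8+ T samples have no replicate number in common. Any difference between these sets of pools therefore cannot be told apart from cell type, for all values below. Wild-type libraries were not used here, and no value below measures an effect of Tyk2.

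Ly6 proteins are small, cysteine-rich surface proteins held in the outer membrane leaflet by a glycosylphosphatidylinositol (GPI) anchor. Several of their genes are induced by type I interferon, whose receptor signals through TYK2 and JAK1, and Ly6C and Ly6A proteins are used as surface markers of activated and memory CD8+ T cells. CD44 is an unrelated transmembrane receptor for hyaluronan that is low on naive T cells, high on memory T cells and carried by NK cells, and it is commonly stained together with Ly6C to tell naive from memory CD8+ T cells.

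In GRCm38 the 6 Ly6 genes lie on chromosome 15 within 349915 bp, between positions 74762056 and 75111970. Ly6d (chr15:74762056-74763620), Ly6k (chr15:74796874-74799986), Ly6a (chr15:74994877-74998031), Ly6c1 (chr15:75044018-75048830) and Ly6c2 (chr15:75108158-75111970) are on the minus strand, and Ly6e (chr15:74955051-74959905) is on the plus strand. Cd44 lies on the minus strand of chromosome 2 (chr2:102811141-102901665). All are annotated as protein coding, and the counts cover all exons of a gene, UTRs included.

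Only reads with 1 alignment were counted, so the sequence shared between family members bears on what could be measured. Ly6c1 and Ly6c2 are the closest pair. Their coding sequences of 396 bases each (GENCODE vM21, GRCm38) differ at 9 positions. Bases 1 to 270, with 7 of the differences, are printed here, 5′ to 3′ on the coding strand, because a read of this pair can be assigned only where it covers a difference. Capitals mark the differing bases.
Ly6c1: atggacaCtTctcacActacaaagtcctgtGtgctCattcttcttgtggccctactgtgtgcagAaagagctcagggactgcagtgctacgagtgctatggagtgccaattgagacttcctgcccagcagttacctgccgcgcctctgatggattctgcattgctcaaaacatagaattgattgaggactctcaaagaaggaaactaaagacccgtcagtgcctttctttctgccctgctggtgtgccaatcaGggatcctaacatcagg
Ly6c2: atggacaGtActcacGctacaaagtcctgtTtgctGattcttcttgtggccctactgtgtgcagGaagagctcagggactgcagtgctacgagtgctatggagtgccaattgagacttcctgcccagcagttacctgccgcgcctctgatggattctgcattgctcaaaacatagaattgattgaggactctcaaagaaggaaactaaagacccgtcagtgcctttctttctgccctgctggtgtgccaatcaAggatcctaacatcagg
Counted from the A of the start codon, with the base of Ly6c1 first, the differences are C8G, T10A, A16G, G31T, C36G, A65G, G254A, T327C and G376A. The stretch from base 66 to base 253 is identical over 188 bases. Of the 347 windows of 50 bases in the coding sequence, 162 (46.7%) were the same in both genes. The pair was 97.7% identical in the coding sequence, Ly6a was 82.0% identical to Ly6c1 and 81.7% to Ly6c2, and the other pairs of Ly6 members were between 41.8% and 49.6% identical.

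Over whole transcripts, UTRs included, 31.21% of the 817 windows of 50 bases in Ly6c2 occurred in another gene, 30.84% in Ly6c1 alone. Of the 1576 windows of Ly6c1, 30.84% were shared, most of them with Ly6c2 (24.05% of all its windows). Ly6a shared 19.89% of its windows with 4 other genes, among them Ly6c1 (15.24%). In Ly6k, 32.69% of windows also belonged to Gm17189, a gene on the opposite strand whose exons overlap those of Ly6k over 395 bases. Gm17189 had 0 counts in all 6 libraries, and since the library kit does not mark strand, reads of these 395 bases cannot be given to either gene. Ly6e, Ly6d and Cd44 shared no window.

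**Figure D1:**
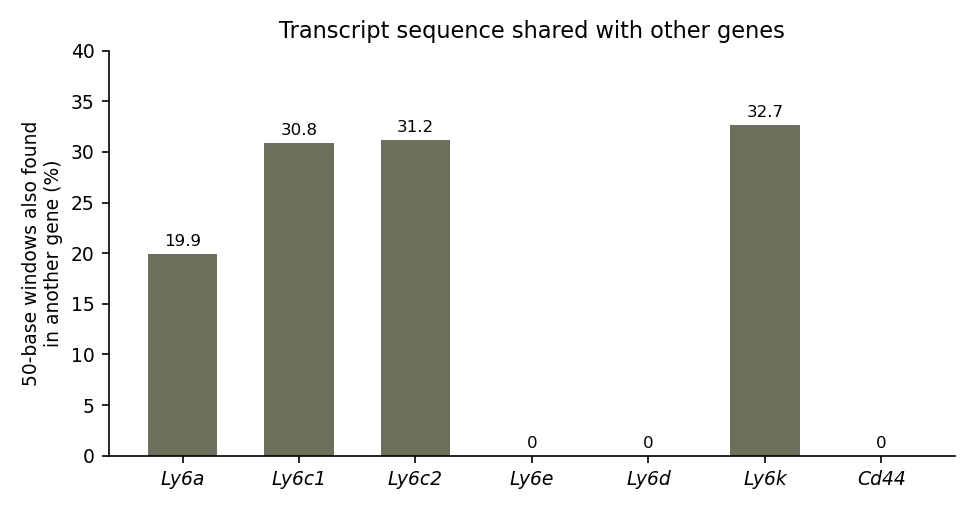
Share of 50-base windows of each gene's annotated transcripts (percent of windows, y axis) that occur exactly in a transcript of another gene, on either strand. Ly6a, Ly6c1, Ly6c2 and Ly6k lie between 19.9% and 32.7%, and Ly6e, Ly6d and Cd44 are at 0.

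Total counts ranged from 20957384 to 26144478 in the CD8+ T libraries, against 32848432 to 38573550 in the NK libraries. Genes with a count numbered 12893 to 14042 in the CD8+ T libraries, against 17224 to 17373 in the NK libraries. The part of this difference in low CD8+ T counts was not tested. Up to 3 counts in a library were read as no detectable transcript, a limit that allows for counting error alone. The sorted cell types carried their defining markers. Cd8b1, a chain of the CD8 coreceptor, had 60044 to 80266 counts in CD8+ T cells, against 0 in every NK library, and Ncr1, the NK cell receptor NKp46, had 137008 to 195219 counts in NK cells and 0 in every CD8+ T library. Of 9 CD8+ T cell markers tested, 7 were called and all 7 were higher in CD8+ T cells, and of 9 NK cell markers 7 were called, all higher in NK cells. Not all CD8+ T cell markers were absent from NK cells. Cd3g had 4879, 7598 and 4337 counts in the NK libraries, and Cd3d had 2978, 8065 and 6290. The summed normalised count of the 9 CD8+ T cell markers was 11600 to 16500 in NK cells, against 279000 to 311000 in CD8+ T cells. The part of T cell transcripts in the NK libraries was not tested. Tyk2 itself had 105, 919 and 554 counts in CD8+ T cells, against 3864, 4245 and 3207 in NK cells. The count sums all exons, so it does not tell whether the mutant allele is intact, and the genotype rests on the labels. The spread between libraries was large, with a common biological coefficient of variation (the relative SD between libraries beyond counting error) of 1.43 in CD8+ T cells, against 0.855 in NK cells.

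Across the 7 members, Ly6c2 was the one that differed between the cell types by the test over all genes, and it was higher in NK cells. Ly6e and Cd44 also had every NK library above every CD8+ T library but did not pass. Ly6a, Ly6d, Ly6k and Ly6c1 varied widely between the CD8+ T libraries, overlapped with NK cells and were not called. All 7 passed the filter on low counts (a mean normalised count of at least 10), Ly6a, Ly6d and Ly6k mainly through 1 or 2 CD8+ T libraries. A gene was called at an adjusted p below 0.05 in the quasi-likelihood test of edgeR, where p-values of all 14062 genes were adjusted together after Benjamini and Hochberg. By this rule 11.4% of all genes were called, 6.24% as higher in NK cells and 5.14% as higher in CD8+ T cells, beside 1 of the 7 members. Libraries did not overlap between the cell types for 3 of the 7 members and for 41.6% of all genes. In bulk RNA, fewer cells with a transcript and less of it per cell cannot be told apart, for these and all values below.

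**Figure D2:**
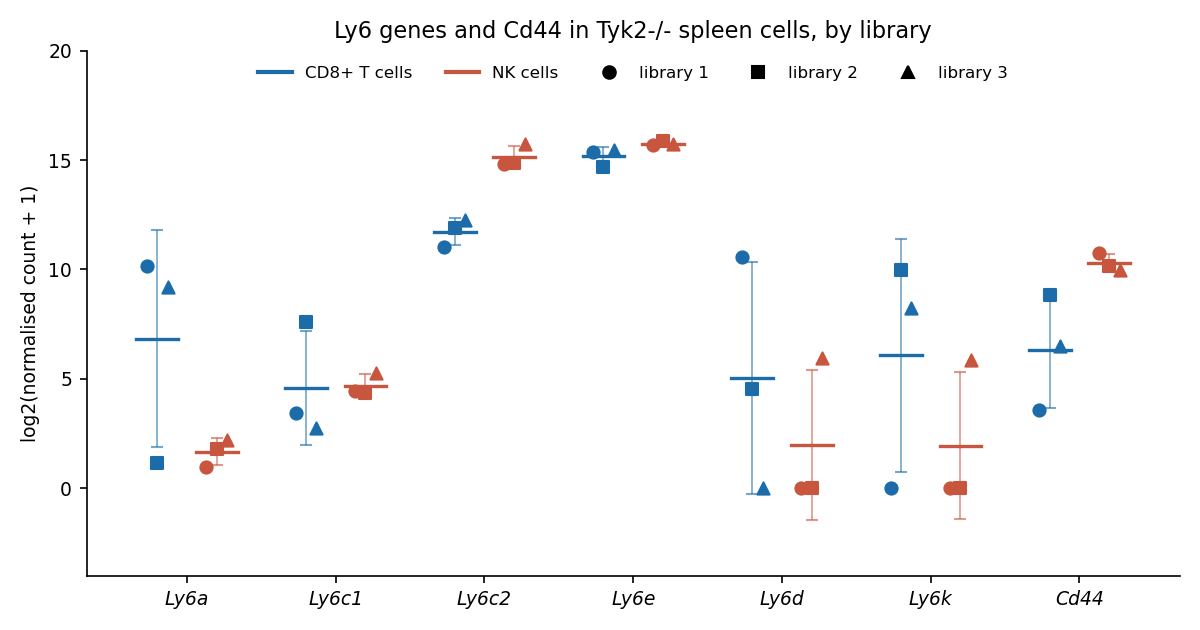
Normalised counts of the 7 genes on a log2(normalised count + 1) scale (y axis) for each library of CD8+ T cells (blue) and NK cells (red), with marker shapes for libraries 1 to 3, the mean as a horizontal line and the SD of the log2 values as an error bar (n = 3). Ly6c2, Ly6e and Cd44 have all NK libraries above all CD8+ T libraries, whereas Ly6a, Ly6d and Ly6k have CD8+ T libraries both near 0 and far above it.

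Ly6c2 encodes one of the proteins that Ly6C antibodies recognise. Its raw counts were 1724, 3103 and 5035 in CD8+ T libraries 1 to 3, against 29782, 36222 and 60485 in NK libraries 1 to 3. Every library of both cell types thus held the transcript well above the limit of detection, and the lowest NK cell value was several times the highest CD8+ T cell value. The mean normalised count was 37900 ± 14290 (SD, n = 3) for NK cells, compared with 3596 ± 1393 (SD, n = 3) for CD8+ T cells. The difference was 3.4 on the log2 scale (SE 0.42, 95% interval 2.4 to 4.4), a 10.5-fold higher level in NK cells, with an adjusted p of 0.0052. A two-sided exact permutation test over the 3 and 3 libraries gave p = 0.1, the smallest value this design allows. When each library was left out in turn, Ly6c2 remained called with adjusted p from 0.0099 to 0.021. Adding the counts of Ly6c1 and Ly6c2 into 1 value before the test gave 3.37 (adjusted p = 0.0053). Plasmacytoid dendritic cells also carry Ly6C. The summed normalised count of 5 of their markers was 2.45, 0 and 822 in the CD8+ T libraries, against 2030, 1880 and 1470 in the NK libraries. Tcf4, not called by edgeR (adjusted p = 0.68), made up all of the CD8+ T sums and 933, 724 and 737 of the NK sums. Of the 4 markers tested, edgeR called 1, Cox6a2 (0 counts in CD8+ T cells, against 369, 1379 and 549, adjusted p = 0.016), and DESeq2 called 3. By edgeR, no gene of the list was called once any of the NK libraries was left out. Without CD8+ T library 3 the list held 2 calls. Siglech, a defining surface receptor of these cells, had 405, 1 and 174 counts in the NK libraries and 0 in CD8+ T cells, and Klk1 was at 0 in all 6 libraries. Summed markers of monocytes and macrophages were also higher in NK libraries, at 38.7 to 568, against 0 to 3.68 in CD8+ T libraries. Those of plasma cells were at 25.3 to 72, against 0. By edgeR no gene of these last 2 lists was called, and DESeq2 called 1 plasma cell marker. The part of any of these cell types in the Ly6c2 values was not tested.

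Ly6c1, the near-identical neighbour that the same antibodies recognise, had few reads. Its counts were 8, 156 and 6 in the CD8+ T libraries, against 21, 23 and 42 in the NK libraries. CD8+ T library 2 was the highest of all 6 and the other CD8+ T libraries were the lowest, so the groups overlapped. The mean normalised count was 68.97 ± 106 (SD, n = 3) in CD8+ T cells, against 25.82 ± 10.36 (SD, n = 3) in NK cells, and the log2 difference, NK minus CD8+ T cells, was -1.41 (SE 1.7, adjusted p = 0.62). Without CD8+ T library 2 the difference was 1.74, in the opposite direction (adjusted p = 0.4).

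The ratio of Ly6c2 to Ly6c1 reads varied with the library. It was 1420, 1570 and 1440 in NK cells, a narrow range, and 216, 19.9 and 839 in CD8+ T cells. Divided by the windows of each gene that no other gene shares (562 in Ly6c2, 1090 in Ly6c1), the ratio was 2750 to 3050 in NK cells and 38.6 to 1630 in CD8+ T cells. On both scales Ly6c2 exceeded Ly6c1 in every library. The values are those of unique reads, and reads that lie wholly within sequence the pair shares are missing from both genes.

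**Figure D3:**
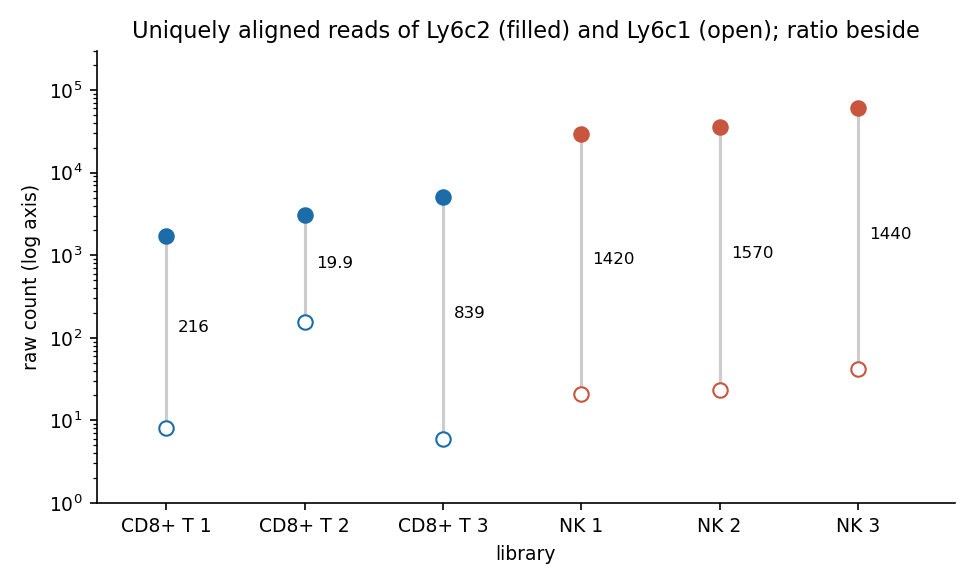
Raw counts of uniquely aligned reads (log axis) of Ly6c2 (filled) and Ly6c1 (open) in each library of CD8+ T cells (blue) and NK cells (red), with their ratio beside each line. The ratio lies between 1420 and 1570 in NK cells and between 19.9 and 839 in CD8+ T cells.

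Ly6e encodes a widely expressed, interferon-induced member of the family. Its counts were 34239, 21782 and 47361 in the CD8+ T libraries, against 53606, 70968 and 60622 in the NK libraries. It was abundant throughout, and its spread was the smallest of the 7 genes, with a coefficient of variation of 26.5% in CD8+ T cells, against 6.7% in NK cells. The mean normalised count was 55370 ± 3719 (SD, n = 3) for NK cells, compared with 38140 ± 10090 (SD, n = 3) for CD8+ T cells. The lowest NK library stood above the highest CD8+ T library, but the log2 difference of 0.54 (SE 0.22, 95% interval 0.01 to 1.07) had an unadjusted p of 0.047 and an adjusted p of 0.16, and the exact permutation test gave 0.1.

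Ly6a encodes Sca-1, a stem cell and T cell activation antigen. Its counts were 937, 1 and 608 in the CD8+ T libraries, against 1, 3 and 4 in the NK libraries. Transcripts were thus detectable in CD8+ T libraries 1 and 3 and near or under the limit of 3 counts in CD8+ T library 2 and in NK cells. The mean normalised count was 578.7 ± 572.7 (SD, n = 3) in CD8+ T cells, against 2.361 ± 1.318 (SD, n = 3) in NK cells. The log2 difference, NK minus CD8+ T cells, was -7.86 (SE 2.29, 95% interval -13.35 to -2.37, adjusted p = 0.072). Without CD8+ T library 2 it was -8.42 and was called (adjusted p = 0.01), and over the fits that left out 1 library the adjusted p ranged from 0.01 to 0.21. DESeq2 called Ly6a on all 6 libraries (adjusted p = 3.2e-05).

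Ly6d encodes an antigen of early lymphoid and B-lineage cells and of squamous epithelium. Its counts were 1231, 18 and 0 in the CD8+ T libraries, against 0, 0 and 68 in the NK libraries. A single CD8+ T library held nearly all of its reads. The log2 difference was -4.63 (SE 3.32, adjusted p = 0.39) and it was 0.87, in the opposite direction, without CD8+ T library 1 (adjusted p = 0.88).

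CD8+ T library 1 also held the most transcripts of B cells. Cd79b, a chain of the B cell receptor, had 4691, 3853 and 972 counts in CD8+ T cells, against 263, 1813 and 2 in NK cells. The summed normalised count of 7 B cell markers was 9170, 4900 and 941 in the CD8+ T libraries, against 257, 1520 and 7.19 in the NK libraries, and 1 of the 7, Fcrla, was at 0 in all 6 libraries. None of the 5 B cell markers tested was called by edgeR, 3 had an unadjusted p below 0.05, and DESeq2 called 2. Pax5, the defining transcription factor of the B lineage, had 6 counts in NK library 3 and 0 in each of the other libraries. The part of B cell transcripts in the Ly6d values was not tested.

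Ly6k, known mainly from testis, had 0, 830 and 309 counts in the CD8+ T libraries, against 0, 0 and 63 in the NK libraries. It was detected in CD8+ T libraries 2 and 3 and in NK library 3. The log2 difference was -4.53 (SE 3.07, adjusted p = 0.36). Without CD8+ T library 2 it was -2.94 (adjusted p = 0.56).

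A gene with 3 counts or fewer in 1 library and at least 100 in another library of the same cell type was common in these data. Of the 10130 genes that reached 100 counts in a CD8+ T library, 2525 (24.9%) showed this pattern, against 712 of 10912 genes (6.52%) in NK cells. Among the 7 members, all of which reached 100 counts in a CD8+ T library, it was seen for Ly6a, Ly6d and Ly6k in CD8+ T cells. In NK cells, where 3 members (Ly6c2, Ly6e and Cd44) reached 100 counts, it was seen for none of the 3. The 3 genes were high in different sets of libraries, Ly6a in 1 and 3, Ly6d in 1 and Ly6k in 2 and 3.

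Cd44, the hyaluronan receptor, had 9, 374 and 94 counts in the CD8+ T libraries, against 1774, 1362 and 1131 in the NK libraries. All NK libraries were above all CD8+ T libraries, and the values in NK cells were close to each other. The mean normalised count was 1295 ± 378.9 (SD, n = 3) for NK cells, compared with 186.9 ± 238.7 (SD, n = 3) for CD8+ T cells. The log2 difference was 2.79 (SE 1.23, 95% interval -0.17 to 5.75), with an adjusted p of 0.18 by edgeR and of 0.037 by DESeq2. Without CD8+ T library 2, the one highest in Cd44, it was 4.69 (adjusted p = 0.054). The summed normalised count of 9 NK cell markers was 4430, 7550 and 3290 in the CD8+ T libraries, against 1540000 to 1930000 in NK cells. Of this sum Prf1, the perforin gene that cytotoxic T cells also express, made up 2700, 5940 and 2780, and Gzma, a granzyme, 1730, 697 and 0. Tyrobp and Fcgr3 had counts in CD8+ T library 2 alone of the 3 (544 and 128), whereas Klrb1c, the gene of the NK1.1 sort marker, was highest in library 3, with 1, 76 and 525 counts. Klre1 had 7, 0 and 1 counts, and Ncr1, Klra4 and Klra8 had at most 1 count in any CD8+ T library. The part of NK cell transcripts in the Cd44 values was not tested.

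**Figure D4:**
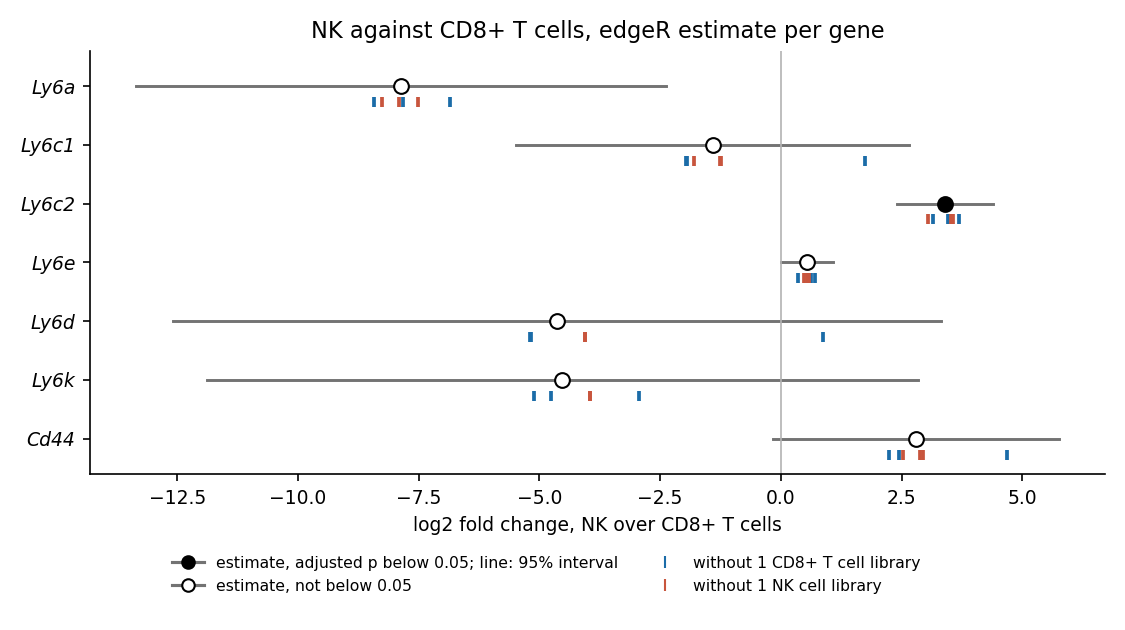
NK over CD8+ T cell log2 ratio (x axis) for each gene by edgeR's quasi-likelihood test (circles, filled where the adjusted p was below 0.05) with its 95% interval (lines), and the estimates with 1 library left out (ticks, blue for a CD8+ T library, red for an NK library). The interval of Ly6c2 lies between 2.4 and 4.4, and Ly6c1 and Ly6d change sign when 1 CD8+ T library is left out. Ly6d and Ly6k have no tick without NK library 3, since the NK group was then at 0.

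Levels of the 7 genes within a cell type were compared as reads per kilobase of exon and 1000000 reads, after normalisation. In CD8+ T cells the order was Ly6e (532), Ly6c2 (142), Ly6d (23.5), Ly6a (19.8), Ly6k (18.2), Ly6c1 (1.53) and Cd44 (1.13). Ly6e was above Ly6c2, and Ly6c2 above Ly6d, in every library, whereas neighbours from Ly6d downwards overlapped and are not separated by these libraries. In NK cells the order was Ly6c2 (1500), Ly6e (773), Cd44 (7.86), Ly6d (0.94), Ly6k (0.782), Ly6c1 (0.573) and Ly6a (0.0807). The first 3 did not overlap with the gene that followed them, Ly6d overlapped with Ly6k and Ly6k with Ly6c1, and Ly6c1 was above Ly6a in every library. Ly6c2 and Ly6e were thus the most abundant members per length in both cell types, and their order was opposite in the 2 cell types. Scaled to windows that no other gene shares in place of exon length, Ly6e (495) stayed above Ly6c2 (220) in CD8+ T cells. Ly6k (28.7) then stood above Ly6d (25.2) and Ly6a (22.6). In NK cells Ly6c2 (2320) stayed above Ly6e (719), and Ly6k (1.23) stood above Ly6d (1.01).

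Most other genes of the Ly6 and uPAR domain family were near or under the limit of detection. Of 31 further family genes found among the gene IDs, 22 had 3 counts or fewer in all 6 libraries and 8 passed the filter. None of the 8 was called by edgeR, 2 had an unadjusted p below 0.05, and DESeq2 called 1. The most abundant was Lypd6b, with 1379, 841 and 4204 counts in CD8+ T cells, against 19, 1 and 155 in NK cells (log2 difference -5.42, adjusted p = 0.08). Ly6g5b, the next, had 551, 201 and 0 counts in CD8+ T cells, against 1, 85 and 0 in NK cells (log2 difference -3.66, adjusted p = 0.43).

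Of 29 tested genes whose enzymes build the GPI anchor or attach it to proteins, 1 was called, 16 had a value above 0 and 13 below, and the median log2 difference was 0.04, beside 0.1 for all genes tested. The called gene was Dpm2, a subunit of dolichol-phosphate mannose synthase, which supplies mannose to the anchor. It had 3097, 2473 and 3935 counts in CD8+ T cells, against 9486, 10295 and 8166 in NK cells (log2 difference 1.24, SE 0.21, adjusted p = 0.014), and no gene of the list was called once any of the NK libraries was left out.

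Around Cd44, 6 of 9 genes for ligands and matrix enzymes were tested and 1 was called. It was Srgn, the granule proteoglycan serglycin that can bind CD44, with 8807, 14161 and 11562 counts in CD8+ T cells, against 24186, 38040 and 35536 in NK cells (log2 difference 1.15, SE 0.25, adjusted p = 0.034). Its list had no call in 5 of the 6 fits that left out 1 library, all but the one without CD8+ T library 2. The hyaluronan synthases Has1 and Has2 were at 0 in all 6 libraries. Of 6 tested genes that link CD44 to the cytoskeleton or act as its coreceptor, 1 was called, Slc9a3r1, a scaffold that binds ezrin, radixin and moesin, with a log2 difference of 1.88 (SE 0.26, adjusted p = 0.0074). Of the proteases that shed CD44, Adam10 had a log2 difference of -0.36 (adjusted p = 0.54) and Adam17 one of -1.59 (adjusted p = 0.074), and neither was called by edgeR, 1 having an unadjusted p below 0.05, while DESeq2 called 1 of the pair.

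Genes that are high in memory CD8+ T cells, the state that Ly6C and CD44 mark on these cells, were mostly higher in NK cells. Of 14 tested, 9 were called, all higher in NK cells, and 13 had a value above 0, with a median log2 difference of 5.27, also with Fasl, which was at 0 in all CD8+ T libraries, set to the limit of 3 counts per library. Ccl5, a chemokine of cytotoxic cells, was 5.82 higher on the log2 scale (SE 0.47, adjusted p = 0.001), Il2rb, the receptor chain shared by IL-2 and IL-15, was 5.64 higher (SE 0.32, adjusted p = 0.00035), and Id2, an inhibitor of E proteins, was 4.9 higher (SE 0.23, adjusted p = 0.00023). These are genes of the NK cell programme as well, so the list does not separate the memory state from the cell type.

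Genes that are high in naive CD8+ T cells were mostly higher in CD8+ T cells. Of 13 tested, 7 were called as higher in CD8+ T cells, against 1 as higher in NK cells, with a median log2 difference of -1.76, also with Dapl1, at 0 in all NK libraries, set to that limit. Ccr7, the lymph node homing receptor, had a log2 difference of -9.01 (SE 0.77, adjusted p = 0.0012) and Lef1, a transcription factor of naive T cells, one of -3.2 (SE 0.22, adjusted p = 0.00066). S1pr1, the receptor for exit into the blood, went the other way at 1.67 (SE 0.23, adjusted p = 0.0074).

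**Figure D5:**
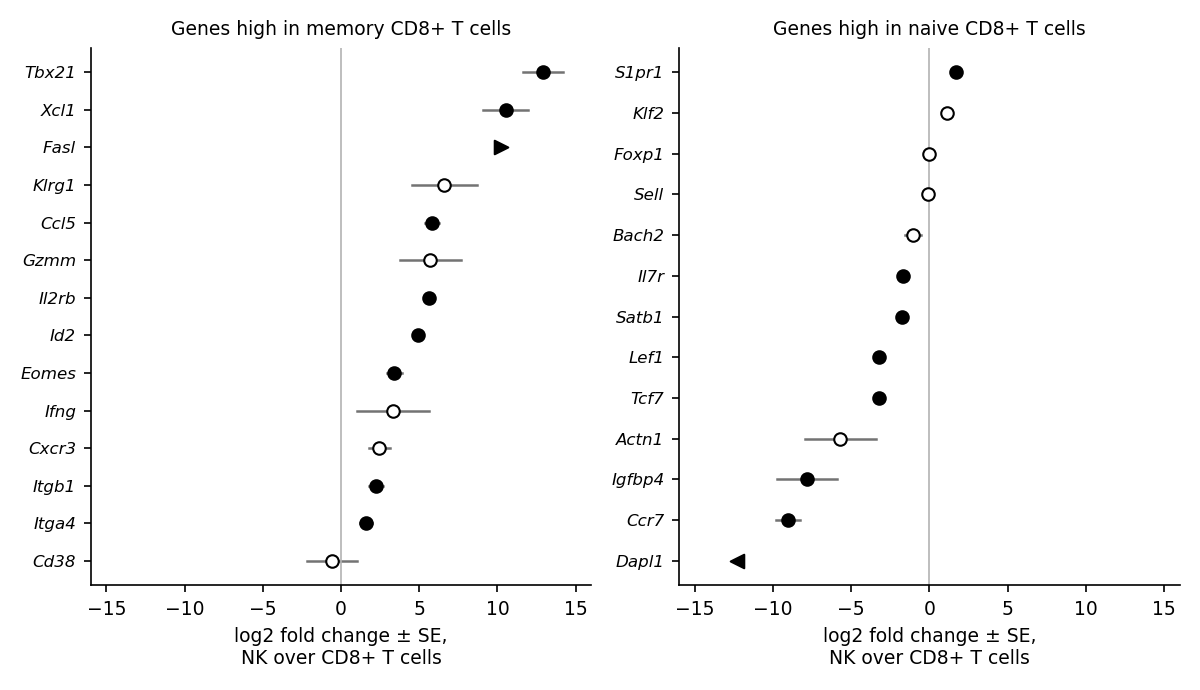
NK over CD8+ T cell log2 ratio (x axis) with its SE for 14 genes high in memory (left) and 13 genes high in naive CD8+ T cells (right), filled where the adjusted p was below 0.05. Triangles show genes at 0 in a whole group, placed at the limit of 3 counts per library, and 9 memory genes and 1 naive gene were called as higher in NK cells.

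Of 12 genes that carry interferon signals to Ly6 genes, 4 were called, 2 in each direction, and the median log2 difference was 0.31. Ifnar2, a chain of the type I interferon receptor, was 1.89 higher in NK cells (SE 0.23, adjusted p = 0.0045), and so was the kinase Jak1 by 1.39 (SE 0.2, adjusted p = 0.01). Irf9, a transcription factor of the interferon response, had a log2 difference of -1.99 (adjusted p = 0.043). Without NK library 1 or 3 the list held 1 call.

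Promoter windows (250 bases before to 50 after the transcript start, RefSeq, GRCm38.p6) were held for Ly6c1, Ly6c2 and Cd44 of the 7 genes. They were searched on both strands for TTCNNNGAA, the motif bound by STAT dimers, and for GAAA followed after any 2 bases by another GAAA, the core of the interferon-stimulated response element. Neither motif occurred in these windows, and 8.3% and 3.44% of 32851 promoter windows held them.

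The genes most like each member over the 6 libraries were taken among genes whose mean normalised count reached 100, by Pearson's r of log2(normalised count + 1). The r values describe 6 libraries of 2 cell types, so a difference between the cell types alone gives a high r. For Ly6c2 they were Crtc3 (r = 0.9973), Gm11478 (r = 0.9973) and Lamtor4 (r = 0.9948), and 520 genes had an r above 0.95. For Cd44 they were Ccdc9 (r = 0.9979), Stat4, a transcription factor of IL-12 signalling (r = 0.9966), and Coasy (r = 0.9961), with 158 genes above 0.95. Those of Ly6e were Snx15 (r = 0.9937), Cdyl (r = 0.9926) and Zdhhc3 (r = 0.9923).

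For Ly6d, 8 genes had an r above 0.95, and the first was App, the amyloid precursor protein (r = 0.9998), with 725, 16 and 0 counts in CD8+ T cells, against 0, 0 and 56 in NK cells. The next were Pbx2 (r = 0.9696) and Tmem41b (r = 0.9623). For Ly6k, 10 genes had an r above 0.95, led by Pgap1 (r = 0.9851), which trims the GPI anchor, with 1, 1007 and 343 counts in CD8+ T cells, against 1, 1 and 26 in NK cells. Trav16, a T cell receptor segment (r = 0.9733), and Mthfd1 (r = 0.973) came next. Ly6a was most like Tmem143 (r = 0.9946), AI467606 (r = 0.9925) and Snord35b (r = 0.992), and Ly6c1 was most like Tbc1d23 (r = 0.9907), Eny2 (r = 0.9803) and Fam118b (r = 0.9792).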

How the data were processed

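Smart-seq2 libraries of NK and CD8+ T cells sorted from spleens of untreated mice labelled Tyk2-/- were analysed, 3 per cell type. Per the labels and methods, the authors used Trimmomatic 0.32 for trimming, STAR 2.7.1 for alignment to mm10 and R 3.2.3 for counting unique alignments in exons of a GRCm38 annotation, and the deposited values are raw counts per gene. Whether strand was used is not stated in the sources used here. Of 104 value columns, 98 were not used: these include 3 columns of wild-type CD8+ T cells, which could not be matched to the 2 labelled samples, so the knockout was not compared with wild type. Columns are not numbered like the samples, and libraries are called 1 to 3 within a cell type. Replicates are pools of littermates, and p-values measure the spread between these pools.

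Counts were normalised with TMM factors and tested with edgeR 4.0.16 in R 4.3.3 (robust quasi-likelihood test, mean normalised count of at least 10, Benjamini-Hochberg adjustment over all genes, threshold 0.05). The code was tested on simulated data. Alternatives were RLE factors, DESeq2 1.42.0, no filter, summed Ly6c1 and Ly6c2 counts and leaving out each library. Normalised counts were scaled to the mean library size, and gene comparisons used exon length. Windows and coding sequences came from GENCODE vM21 transcripts (Biopython 1.88, exact matches on both strands). Of the gene IDs, 54079 matched this annotation and 153 did not. Named genes were the 7 members, up to 3 called genes per list with the highest mean count (2 genes where none was called), and the 3 genes most like each member. Genes named outside this rule (Pax5, Fcrla, Prf1, Tyrobp, Fcgr3, Klra4, Klra8, Klre1, Siglech, Klk1, Tcf4, Has1, Has2, Irf9, Fasl, Dapl1, Gm17189 and Tyk2) were chosen after their values were seen. Results for some single genes are not given. Members and lists were chosen with earlier results of these data known. Marker lists of other cells had these ranges of summed normalised counts (CD8+ T cells first, NK cells second): plasma cells 0 and 25.3 to 72, monocytes and macrophages 0 to 3.68 and 38.7 to 568, neutrophils 0 and 0, erythroid cells 1.94 to 42.8 and 3.6 to 53.6, and endothelial cells 0 and 0 to 288.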

Additional observations from a re-analysis of the deposited data

How the results depend on the processing

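Ly6c2 kept its direction and its call under every alternative, at 3.04 to 3.68 on the log2 scale of NK over CD8+ T cells when 1 library was left out. With DESeq2, Ly6a (-7.88, adjusted p = 3.2e-05) and Cd44 (2.86, adjusted p = 0.037) were also called, so that 3 members were called, and 3729 genes in all, 2132 of them NK-high and 1597 CD8-high. DESeq2 gave no adjusted p for Ly6c1 and Ly6d. Leaving out 1 library gave -8.42 to -6.86 for Ly6a, -1.97 to 1.74 for Ly6c1, -11.96 to 0.87 for Ly6d, -11.75 to -2.94 for Ly6k, 0.36 to 0.7 for Ly6e and 2.23 to 4.69 for Cd44. The lower ends for Ly6d and Ly6k are fits over NK libraries at 0, without NK library 3, and are no estimate or bound. The number of called members was then 1 to 2, and of called genes 476 to 1946, 236 to 1205 of them NK-high and 240 to 741 CD8-high, lowest with 2 NK libraries. The causes were not tested. RLE factors, no filter and the summed Ly6c genes changed no call of a member. DESeq2 called 6 GPI anchor genes, 8 interferon signal genes, 2 CD44 ligand genes, 1 sheddase and 2 B cell markers. No paired analysis was possible because NK and CD8+ T cell samples share no replicate number in the labels. The planned fits against wild type were not run.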
